A study of Caenorhabditis elegans with 4 samples.

Results

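Wild-type body-wall muscle of *Caenorhabditis elegans* embryos was described by the genes that reached 10 UMI counts in each of the wild-type libraries of a 3′ mRNA sequencing experiment. Of 14463 genes in the count table, 3620 (25.03%) met this minimum and are named the kept genes below. The study set muscle of miR-1-deficient embryos against muscle of wild-type embryos, and only its wild-type libraries were used here, without a comparison between genotypes. The strain, MLC2232, carried the extrachromosomal array lucEx1207(*myo-3p::YFP*) and no other listed allele. In this array the promoter of a myosin heavy chain gene of non-pharyngeal muscle drives a yellow fluorescent protein. The labels give growth at 20 degrees. By the methods, the synchronized larvae and then the collected embryos were kept at warmer temperatures, the embryos at the warmest, until most had reached the 1.5-fold stage. These embryos were dissociated with enzymes, and 5000 YFP-positive cells were sorted for each library. The methods say that cells were collected in duplicate, and no source used here says whether the libraries came from separate cultures. With 1 group of 2 libraries no test was possible, so every value is a level with the spread between these libraries, which may in part be technical.

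The libraries, wild type 1 and wild type 2, held 245336 and 424968 UMI counts. At least 1 count was found for 10169 genes in wild type 1 and 11805 genes in wild type 2, and the kept genes held 90.50% and 88.99% of the counts. Levels are given as CPM, the UMI counts of a gene per 1000000 counts of its library, and pairs of values are those of wild type 1 and wild type 2. The assay primes on the poly(A) tail and counts 1 tag per transcript end, so CPM was not divided by transcript length. A count of 0 allowed a level of up to 12.2 CPM in wild type 1 and 7.06 CPM in wild type 2, and this limit, like every interval given, covers counting error only. At the minimum itself, 266 genes were just inside, with a lower count of 10, and 260 were just outside, with a lower count of 9. Because wild type 2 was deeper, 1603 genes reached the minimum in it alone, against 105 in wild type 1 alone. The median kept gene had 88.7 CPM and the median gene of all 14463 had 10.3 CPM.

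The libraries were similar but not alike. Wild type 2 held 1.98 times the summed CPM of cuticle collagens named *col-*, 1.64 times that of pharynx markers and 1.56 times that of intestine markers, and these values stand beside the results they touch. Chi-square per degree of freedom between the count columns was 2.28 over the kept genes, so the columns differed by more than counting error. Across the kept genes, which are not independent replicates, Pearson's r of log2 CPM was 0.95 and Spearman's rho of CPM was 0.894. The CPM values of 2907 kept genes (80.3%) lay within 1.5-fold of each other, and those of 148 lay more than 2-fold apart. Of the 905 kept genes with a mean of at least 179 CPM, 13 were more than 2-fold apart.

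**Figure D1:**
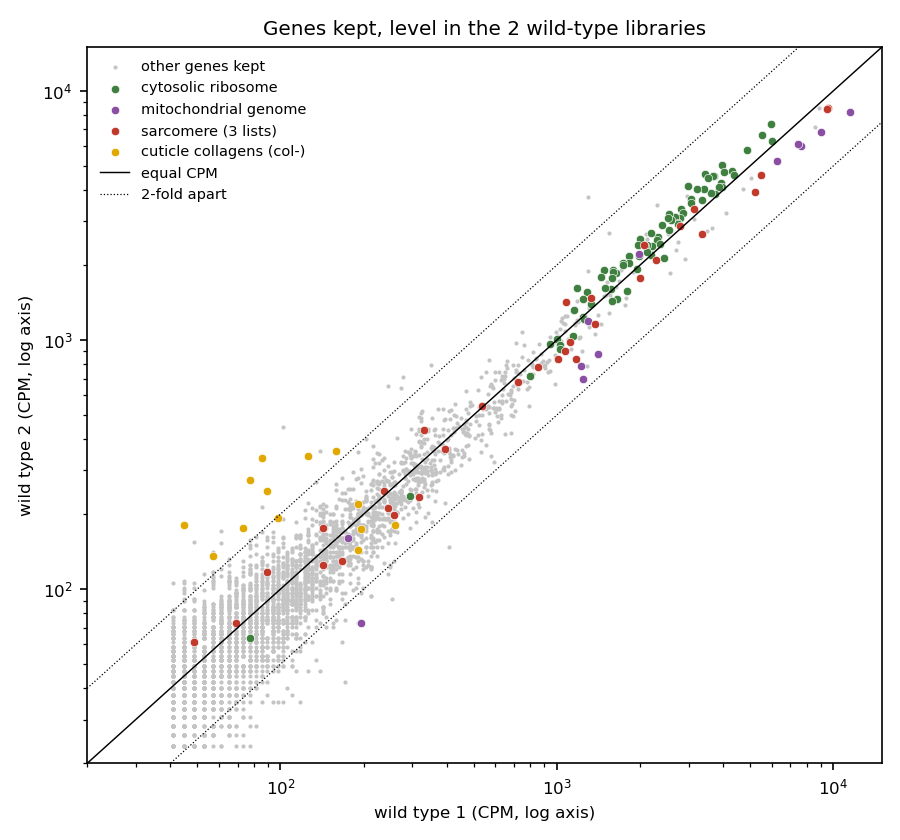
Level of each of the 3620 kept genes in wild type 1 (x axis) and wild type 2 (y axis), in CPM on log axes, with equal levels on the solid line and 2-fold differences on the dotted lines; coloured points are kept genes of the lists named in the key. Ribosomal protein genes lie mostly above the line (65 of 78), genes of the mitochondrial DNA mostly below it (11 of 12), and 10 of 13 cuticle collagens above it; the straight lower and left edges are the minimum of 10 counts, which is 40.8 CPM in wild type 1 and 23.5 CPM in wild type 2.

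Body-wall muscle of *C. elegans* is obliquely striated: thick filaments of myosin and paramyosin interdigitate with thin filaments of actin, and both are anchored to the cell membrane through integrin-based dense bodies and M-lines. These attachments connect the muscle through a basement membrane to the epidermis and cuticle, so that contraction bends the body. By the 1.5-fold stage the embryo has begun to elongate, and its muscle cells assemble sarcomeres and begin to twitch.

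The markers of the label were present in both libraries. *unc-54*, the major body-wall myosin heavy chain, had 2347 and 3634 counts, or 9566 and 8551 CPM, a mean of 9059 ± 718 CPM (SD, n = 2), and was at rank 2 among all genes. *myo-3*, the minor body-wall heavy chain whose promoter drove the sorting marker, had 262 and 384 counts (mean 986 ± 116 CPM) and was at rank 165. *hlh-1*, the MyoD-like transcription factor of body-wall muscle, was close to the minimum with 13 and 25 counts (53.0 and 58.8 CPM). The myosins of pharyngeal muscle had at most 1 count in wild type 1 but passed 10 counts in wild type 2, with 0 and 13 counts for *myo-2* and 1 and 16 counts for *myo-1*. The sorted cells thus carried the label's markers, with the master regulator at a low level. The 3′UTR of the YFP transgene is not given in the sources used here, and counts of a transgene that ends in a native 3′UTR would add to the gene it came from. Whether this touched *unc-54* or any other gene was not tested.

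Transcripts of 3 kinds filled the top of the list: proteins of the cytosolic ribosome, subunits encoded by mitochondrial DNA, and proteins of the sarcomere and its basement membrane. The 10 most abundant genes held 8.43% and 7.42% of the counts, and the 100 most abundant 33.8% and 34.8%. Of the 40 most abundant genes, 23 encoded ribosomal proteins, 5 were genes of mitochondrial DNA, 3 belonged to the thin filament, 2 to the basement membrane, 1 to the thick filament, 1 was the giant protein *ttn-1* and 1 the linker histone *hil-7*. The other 4 were in no list. No gene of the 40 had both of its values above both values of the next in rank, so neighbours in this order did not differ beyond the spread between libraries.

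**Figure D2:**
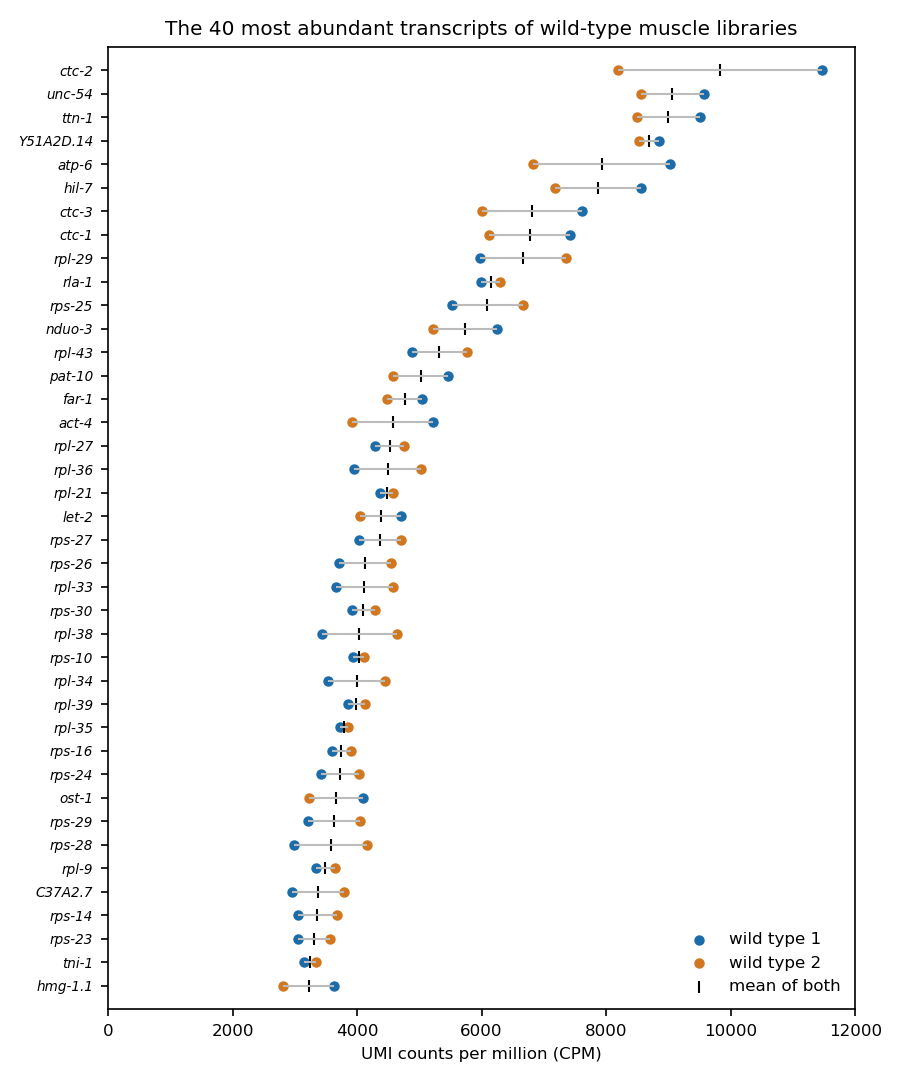
Level of the 40 most abundant genes in wild type 1 and wild type 2 (coloured points) and their mean (black ticks), in CPM on a linear axis from 0, ordered by the mean. The range of each gene overlaps that of the next; *ctc-2* at the top had 11470 and 8191 CPM and *hmg-1.1* at the bottom 3636 and 2814 CPM.

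By the mean, the most abundant gene was *ctc-2*, a cytochrome c oxidase subunit encoded in mitochondria, at 9831 ± 2318 CPM (SD, n = 2). It led in wild type 1 with 11470 CPM, but its 8191 CPM in wild type 2 lay below *unc-54*, *ttn-1* and *Y51A2D.14*. In order of the mean, *ctc-2* was followed by *unc-54* (I:14855901-14863482 in WBcel235) and by *ttn-1* (V:6120909-6202632), a titin-like giant protein, at 8998 ± 712 CPM. *Y51A2D.14* (V:18582658-18582967, named *txt-14* in the annotation) came next with 8849 and 8528 CPM, although its coding sequence spans only 162 bases. The linker histone *hil-7* was at rank 6 with 7874 ± 976 CPM. Of the other genes outside the lists, *far-1*, a fatty acid and retinol binding protein, had 5046 and 4478 CPM. *hmg-1.1*, an HMG-box chromatin protein, had 3636 and 2814 CPM, and *C37A2.7*, which RefSeq names *rplp-2.1*, had 2951 and 3791 CPM. A ribosomal name of this kind outside the list shows that the count of 23 ribosomal genes is a lower figure.

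Genes of the sarcomere were almost all kept and together held several percent of all counts. Of the 34 genes of the thick filament, the thin filament and the giant sarcomere proteins, 32 (all but the calponin-like *cpn-1* and *cpn-4*) passed the minimum, against 25.03% of all genes in the table, and their sum was 5.81% and 5.27% of the counts. Over all muscle lists, 140 of 175 genes were kept, and all 175 held 9.68% and 8.70% of the counts.

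All 6 genes of the thick filament list were kept, with a summed level of 19765 and 18611 CPM. The *unc-54* heavy chain exceeded *myo-3* by 8.96-fold and 9.46-fold (mean 9.21 ± 0.357, SD, n = 2). The annotated transcripts of both are of nearly the same length, 6204 and 6104 bases. Whether counts of the YFP transgene added to *unc-54*, and so to this ratio, was not tested. The regulatory light chains *mlc-1* and *mlc-2* had 2832 ± 68.1 and 2233 ± 240 CPM (SD, n = 2 each), and the alkali light chain *mlc-3* had 1884 ± 155 CPM. *unc-15*, which encodes the paramyosin core of the filament, had 2195 ± 136 CPM. The light chains and paramyosin thus lay between both heavy chains. *mlc-1* and *mlc-2* are near-identical copies, and the split of reads between them is uncertain.

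The giant proteins differed widely among themselves. *ttn-1* had 9501 and 8495 CPM, while *unc-89*, an obscurin-like M-line protein, had 538 and 541 CPM, *unc-22*, the twitchin kinase that gives the mutant its twitch, had 330 and 435 CPM, and *ketn-1*, a kettin, had 318 and 235.3 CPM. Both values of *ttn-1* were above every value of the other giants. Per kilobase of annotated transcript the order of the most abundant genes changed: *ttn-1*, whose longest transcript has 45903 bases, was at rank 3 by CPM and at rank 654 by CPM per kilobase, and *unc-54* at ranks 2 and 136. The potassium channel gene *exp-2* overlaps *ttn-1* on the opposite strand, and the strand setting of the counting is not given in the sources used here.

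In the thin filament list, 22 of 24 genes were kept and the sum was 27664 and 24430 CPM. *pat-10*, troponin C of body-wall muscle (I:5018783-5020358), led with 5462 and 4579 CPM. *act-4* (X:4960621-4964413) was the most abundant of 4 actin genes with 5225 and 3913 CPM, followed by *act-1* (1080 and 1424 CPM), *act-3* (1117 and 986 CPM) and *act-2* (245 and 212 CPM). Together these actins had 7667 and 6535 CPM. The actins are near-identical in coding sequence and the assignment of their reads is uncertain.

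The troponin and tropomyosin switch that couples calcium to contraction was represented by several genes each for troponin I and troponin T. In the thin filament list troponin C was *pat-10* alone and tropomyosin *lev-11* alone. Summed over the 3 troponin I genes *tni-1*, *unc-27* and *tni-3* the level was 4079 ± 102 CPM (SD, n = 2), of which *tni-1* alone had 3246 ± 146 CPM. Summed over the 3 troponin T genes *tnt-3*, *mup-2* and *tnt-2* it was 2431 ± 2.69 CPM. Tropomyosin, *lev-11*, had 856 and 777 CPM. Troponin C was thus higher than the sum for troponin I, and that sum higher than the sum for troponin T, in both libraries. Among the other members, the calponin *cpn-3* had 3363 and 2668 CPM, the calponin-like *clik-1* 1378 and 1165 CPM, the actin-depolymerizing factor *unc-60* 1174 and 842 CPM, and the filament-stabilizing *unc-87* 143 and 177 CPM.

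Adhesion to the body wall was represented nearly in full but at lower levels than the filaments. Of 23 genes of the integrin attachments list, 22 were kept, and the sum was 7418 and 7038 CPM. *dim-1*, an immunoglobulin-domain protein near dense bodies, had 1215 and 1202 CPM, and *tln-1*, talin, 1178 and 1200 CPM. The beta integrin *pat-3* had 611 and 468 CPM and the alpha integrin *pat-2* 281 and 214 CPM, a ratio of 2.17 and 2.19. Other intracellular partners included *unc-97*, the PINCH adaptor (380 ± 44.8 CPM, SD, n = 2), *unc-112*, kindlin (338 ± 58.4 CPM), and *deb-1*, vinculin (309 ± 24.3 CPM). Also kept were *pat-6*, parvin (294 ± 62.8 CPM), and *pat-4*, the integrin-linked kinase (179 ± 17.3 CPM). Over the whole list, means ran from 29.9 CPM (*atn-1*) to 1209 CPM (*dim-1*). Only *atn-1*, alpha-actinin of dense bodies, missed the minimum in this list, with 6 and 15 counts.

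In the dystrophin complex, which links actin to the membrane, 11 of 12 genes were kept. *dys-1*, dystrophin, had 819 and 781 CPM, above every value of the other members. *ctn-1*, an alpha-catulin, had 200 and 176 CPM, the sarcoglycan *sgn-1* 106 and 115.3 CPM, and the syntrophin *stn-2* 118 and 89.4 CPM. *snf-6*, an acetylcholine transporter of the complex, had 3 and 2 counts.

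The extracellular matrix that muscle lays down was among the most abundant products. Of 19 basement membrane genes 16 were kept, with a sum of 14857 and 12700 CPM. *let-2*, the alpha-2 chain of type IV collagen (X:16380597-16389340), had 4712 and 4054 CPM and *emb-9*, the alpha-1 chain (III:9336881-9344447), 1781.2 and 1470.7 CPM. The alpha-2 transcript was 2.65 and 2.76 times as abundant, and the annotated transcripts have similar lengths of 5715 and 5611 bases. *ost-1*, SPARC, a collagen-binding protein, had 4096 and 3221 CPM, and *mig-6*, papilin, 1207 and 1021 CPM. The laminin subunits were lower, with 842 ± 48.95 CPM for the beta chain *lam-1*, 354 ± 35.1 CPM for the gamma chain *lam-2* and 486 ± 44.9 CPM summed over the alpha chains *epi-1* and *lam-3* (SD, n = 2 each). *unc-52*, the perlecan that anchors integrin, had 322 and 372 CPM. The peroxidasins *pxn-1* and *pxn-2* and the fibulin *fbl-1* fell short of the minimum, with at most 6 counts in a library.

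Genes for folding and secreting collagen were mostly kept as well, 16 of 20, at 5503 and 4770 CPM in sum. *crt-1*, calreticulin, had 1231 and 901 CPM, and *pdi-2*, the protein disulfide isomerase that is also a subunit of prolyl hydroxylase, 1101 and 1007 CPM. *hsp-3*, a BiP chaperone of the endoplasmic reticulum, had 459 ± 13.6 CPM and *enpl-1*, an endoplasmin, 446 ± 48.9 CPM (SD, n = 2 each). The prolyl hydroxylase *dpy-18* had 106 and 129.4 CPM, and the stress-induced BiP *hsp-4* had only 2 and 4 counts.

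Excitation and calcium handling formed a group in which 13 of 23 genes were kept, at 4855 and 4259 CPM. *cmd-1*, calmodulin, had 933 and 828 CPM, and *unc-68*, the ryanodine receptor that releases calcium from the sarcoplasmic reticulum, 901 and 784 CPM. *twk-18*, a muscle potassium channel, had 538 and 499 CPM, and *jph-1*, junctophilin, 554 and 379 CPM. The calcium pump *sca-1* had 350.5 and 301.2 CPM, the store protein *csq-1*, calsequestrin, 298 and 294 CPM, and the voltage-gated calcium channel *egl-19* 171 and 153 CPM. The release channel was thus above the pump and the entry channel in both libraries. Of the 10 genes outside, *unc-93*, a potassium channel regulator, had 6 and 8 counts, and its partner *sup-10* had 5 and 8.

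Transcripts of the neuromuscular junction were kept for 15 of 18 genes, all at modest levels, with a sum of 1997 and 1812 CPM. *ric-3*, a chaperone of acetylcholine receptors, led with 322 and 388 CPM, followed by *rsu-1* (330 and 273 CPM), which is better known as a partner of the integrin attachments, and *cam-1*, a Ror receptor kinase (322 and 273 CPM). *lev-10*, which clusters the receptors, had 110 and 132 CPM. The subunits of the levamisole receptor were lower: *lev-8* had 34 and 40 counts, *lev-1* 22 and 27, *unc-29* 14 and 20, *unc-63* 12 and 16 and *unc-38* 11 and 19. The GABA receptor *unc-49* had 16 and 36 counts, and the nicotine-sensitive receptor *acr-16* only 3 and 6.

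Of 15 genes for the growth of muscle arms and for guidance, 14 were kept. Muscle cells of *C. elegans* send arms to the nerve cord and also secrete guidance cues for other cells. *let-756*, a fibroblast growth factor, had 387 and 379 CPM, and *unc-129*, a TGF-beta ligand made by muscle, 277 and 259 CPM. The receptor partner *eva-1* had 216 and 188 CPM, the ephrin receptor *vab-1* 171 and 148 CPM, and the netrin receptor *unc-40* 200 and 101 CPM. The levels of *let-756* and *unc-129* differed by less than 1.5-fold between the libraries, whereas those of *unc-40* differed by more.

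Transcription factors of the mesoderm had the lowest summed level of the muscle lists, 469 and 336 CPM. Of 12 genes 2 were kept (16.7%, beside 25.03% of all genes in the table). *unc-120*, the SRF-like factor, had 64 and 83 counts (261 and 195 CPM), 4.92 and 3.32 times the CPM of *hlh-1*. *pal-1*, the Caudal factor that specifies muscle fate early, had 9 and 10 counts, and *let-381*, a forkhead factor of non-striated mesoderm, 10 and 8. *hnd-1*, a bHLH factor of early mesoderm, *hlh-8*, the Twist of the postembryonic lineage, *unc-39* and *tbx-8* each had 5 or fewer counts in each library, too few to tell their levels apart from each other.

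The cytosolic ribosome had the highest summed level of the 34 lists. All 78 genes of this list were kept, and they held 19.05% and 21.62% of the counts, 20.3% ± 1.82 (SD, n = 2). The list leaves out *C37A2.7*, *Y37E3.8*, *ubq-2* and *ubl-1*, which have ribosomal names or encode fused ribosomal proteins, so this share is a lower figure. The large-subunit gene *rpl-29* had 5971 and 7353 CPM, the stalk protein *rla-1* 5992 and 6297 CPM, and the small-subunit gene *rps-25* 5519 and 6669 CPM. The median ribosomal protein gene had 2289 CPM and the range was from 70.5 CPM (*rpl-11.1*) to 6662 CPM (*rpl-29*). *rpl-11.1* and *rpl-24.2*, which had 293 and 238 CPM, lay below all others. Of the 78 genes, 65 had the higher CPM in wild type 2.

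Within the ribosome the levels were graded with transcript length. Spearman's rho between mean CPM and the length of the longest annotated transcript was -0.69 across the 78 genes, which share both libraries and are not independent. The 34 genes with transcripts under 500 bases had a median of 3674 CPM and the 44 longer ones 1936 CPM. Over all 3562 kept genes with a length the same rho was -0.10. The part of transcript length in the differences between ribosomal genes was not tested further.

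**Figure D3:**
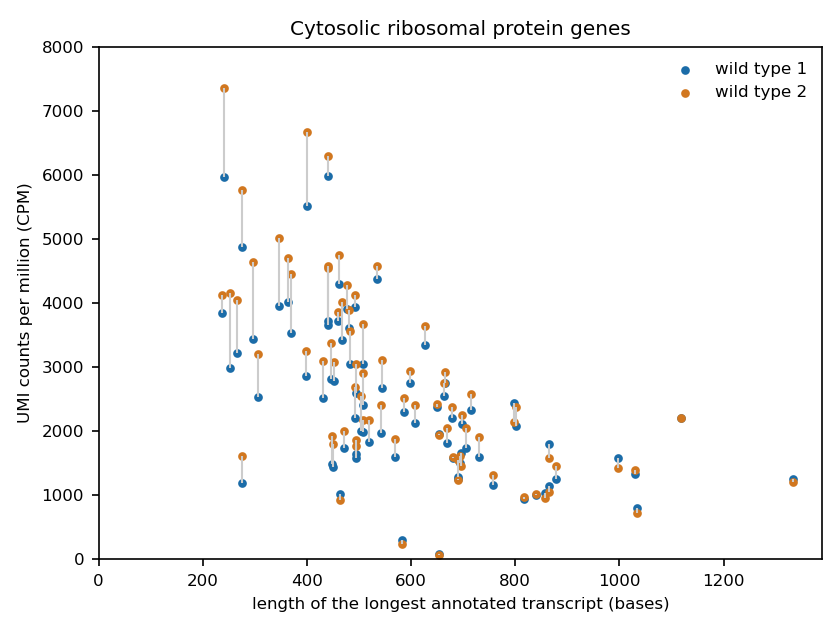
Level of the 78 cytosolic ribosomal protein genes in CPM (y axis, linear from 0) in wild type 1 and wild type 2 (points joined by a line for each gene) against the length of the longest annotated transcript in bases (x axis). Levels tend to be higher for shorter transcripts, with exceptions, and 65 of 78 genes have the higher value in wild type 2.

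Of 42 translation factors 31 were kept, with a sum of 13276 and 12714 CPM. A poly(A)-binding protein, *pab-2*, led with 3126 and 3073 CPM, 5.52 and 6.77 times the level of its paralog *pab-1*. The elongation factor *eef-1A.1* had 2743 and 2475 CPM and its paralog *eef-1A.2* 840 and 849 CPM, and *eef-2* had 1039 and 995 CPM. Paralogs of this kind can share reads, so the ratio within a pair is uncertain.

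Among the lists for energy supply, the genes of mitochondrial DNA had the highest summed level. The 12 genes of mitochondrial DNA in the table were all kept and held 4.93% and 3.83% of the counts, with 11 of them higher in wild type 1. The spread between genes was wide: *ctc-2*, *atp-6* (9028 and 6824 CPM), *ctc-3* (7610 and 5998 CPM), *ctc-1* (7427 and 6118 CPM) and *nduo-3* (6245 and 5212 CPM) were at the top, and *nduo-5* (175 and 160 CPM) and *nduo-2* (196 and 72.95 CPM) at the bottom. The counts do not show whether a tag came from a poly(A) tail or from priming within a transcript.

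Of 44 nuclear genes of the respiratory chain and ATP synthase, 36 were kept, at 15297 and 15121 CPM. Cytochrome c, *cyc-2.1*, had 2217 and 2179 CPM, *atp-4*, coupling factor 6 of the ATP synthase, 1504 and 1522 CPM, and the ADP/ATP carrier *ant-1.1* 1068 and 1245 CPM. *cco-2*, a nuclear cytochrome oxidase subunit, had 1068 and 1158 CPM. Glycolysis was less represented, with 12 of 19 genes kept and a sum of 2340 and 2367 CPM. The glyceraldehyde phosphate dehydrogenases *gpd-3* (628 and 690 CPM) and *gpd-2* (355 and 264 CPM) and the aldolase *aldo-1* (314 and 308 CPM) led it, and *aldo-2* had 126 and 221 CPM. The nuclear respiratory list thus summed to several times the glycolysis list in both libraries, but it also holds more genes. The median gene had 200 CPM in the respiratory list and 75.7 CPM in the glycolysis list.

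Chaperone and proteasome genes were kept in unequal shares. Of 35 cytosolic chaperones 26 were kept (74.3%), with 9424 and 9502 CPM. The small heat shock proteins *hsp-12.1* (2213 and 2247 CPM) and *hsp-12.2* (1357 and 1400 CPM) led. Another, *hsp-25*, had 615 and 569 CPM. *daf-21*, Hsp90, had 754 and 682 CPM, and its partner *unc-45*, the chaperone that folds myosin heads, 342 and 431 CPM. The 8 chaperonin genes *cct-1* to *cct-8*, which fold actin and tubulin, summed to 1504 and 1419 CPM. Of 33 proteasome genes 9 were kept (27.3%, close to the 25.03% of all genes in the table), at 1039 and 1219 CPM. They were led by the core subunit *pbs-1* (97.8 and 103.5 CPM) and the regulatory subunit *rpt-4* (77.4 and 80.0 CPM). Next came the core subunits *pbs-4* and *pbs-5* (67.3 ± 8.62 and 60.3 ± 4.57 CPM, SD, n = 2 each).

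The stress list gave 7 kept genes of 14 and 3224 and 3770 CPM, but 1 gene made up most of it. This was *ubq-2* (2095 and 2659 CPM), which encodes ubiquitin fused to a ribosomal protein. *hsp-6*, the mitochondrial Hsp70, had 685 and 619 CPM. The inducible cytosolic Hsp70 genes *F44E5.4* (102 and 113 CPM) and *F44E5.5* (93.75 and 155 CPM) are near-identical neighbours whose reads may be shared. The heat-inducible *hsp-16.2* had 17 and 20 counts, *hsp-16.41* 6 and 5, and *hsp-16.49* 0 and 1. Whether the warmer incubation of the embryos bore on these levels was not tested.

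The V-ATPase, the proton pump of lysosomes, had 18 of 21 genes kept and 4802 and 5290 CPM. The proteolipid subunits *vha-3* (518 and 628 CPM), *vha-2* (542 and 527 CPM) and *vha-1* (424 and 501 CPM) and the small subunit *vha-17* (436 and 466 CPM) were the most abundant. *vha-2* and *vha-3* encode the same subunit and may share reads. Of 15 tubulins 6 were kept (40%, beside 25.03% of all genes in the table). They were led by *tba-1* (461 and 459 CPM), *tbb-2* (269 and 233 CPM), *tba-2* (200 and 181 CPM) and *tbb-1* (143 and 195 CPM).

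Few genes of DNA replication and cell division were kept. Of 30 such genes 4 were kept (13.3%, beside 25.03% of all genes in the table). These were the cyclins *cyb-3* (126 and 120 CPM) and *cyb-1* (44.8 and 30.6 CPM), the replication protein *rpa-2* (48.9 and 49.4 CPM) and the ribonucleotide reductase *rnr-2* (57.1 and 35.3 CPM). The median of the list was 9.49 CPM, near the 10.3 CPM over all genes of the count table. Of 42 histone genes 9 were kept, 21.4% beside the same 25.03%. After *hil-7* these were led by *his-37* (1088 and 1254 CPM), an H4 gene, and the H3.3 variant *his-72* (1072 and 1092 CPM), with *his-35*, an H2A gene, at 758 and 953 CPM. Replication-dependent histone mRNAs lack a poly(A) tail in most animals, and the median of the histone list was 3.80 CPM.

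In the microRNA pathway 7 of 12 genes were kept. The GW182-like partners *ain-1* (322 and 376 CPM) and *ain-2* (257 and 176 CPM) were above the Argonaute *alg-1* (73.4 and 96.5 CPM). *alg-2* had 7 and 13 counts, the Dicer *dcr-1* 9 and 14, and the processing factors *drsh-1* (2 and 8 counts) and *pash-1* (2 and 1 counts) were near the limit.

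Many of the kept genes carried only a sequence name in the table. Of the 3620, 1278 (35.3%) were of this kind, and 9 of these were among the 100 most abundant. Some of them have a name in the annotation or in RefSeq. The share of such names over all genes in the table was not computed. After *Y51A2D.14* and *C37A2.7* came the neighbours *C02E7.6* (2303 and 3476 CPM) and *C02E7.7* (1296 and 3746 CPM), which lie 632 bases apart on chromosome V. *Y37E3.8*, which RefSeq names *rpl-27A*, had 2115 and 2555 CPM. *F41F3.3* had 1549 and 2701 CPM and *F47B7.1*, named *pmpl-1* in the annotation, 1887 and 1880 CPM. *F29B9.11* had 1704 and 1908 CPM, *Y82E9BR.3* 1675 and 1722 CPM and *F44E5.1* 1516 and 1713 CPM. The annotated coding sequences of all 10 are short, from 162 bases in *Y51A2D.14* to 468 bases in *F41F3.3*.

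Transcripts of other tissues were present and unequal between tissues. Over 10 lists of markers, 67 of 355 genes were kept, beside 25.03% of all genes in the table. All 355 summed to 1.67% and 1.96% of the counts, against 9.68% and 8.70% in the muscle lists. In a bulk sample, fewer cells of a type and less RNA per cell cannot be told apart, and several of these markers are also made in muscle or elsewhere. The muscle lists in turn hold genes of general use, such as *crt-1* and *cmd-1*, so these sums do not measure the purity of the sort.

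**Figure D4:**
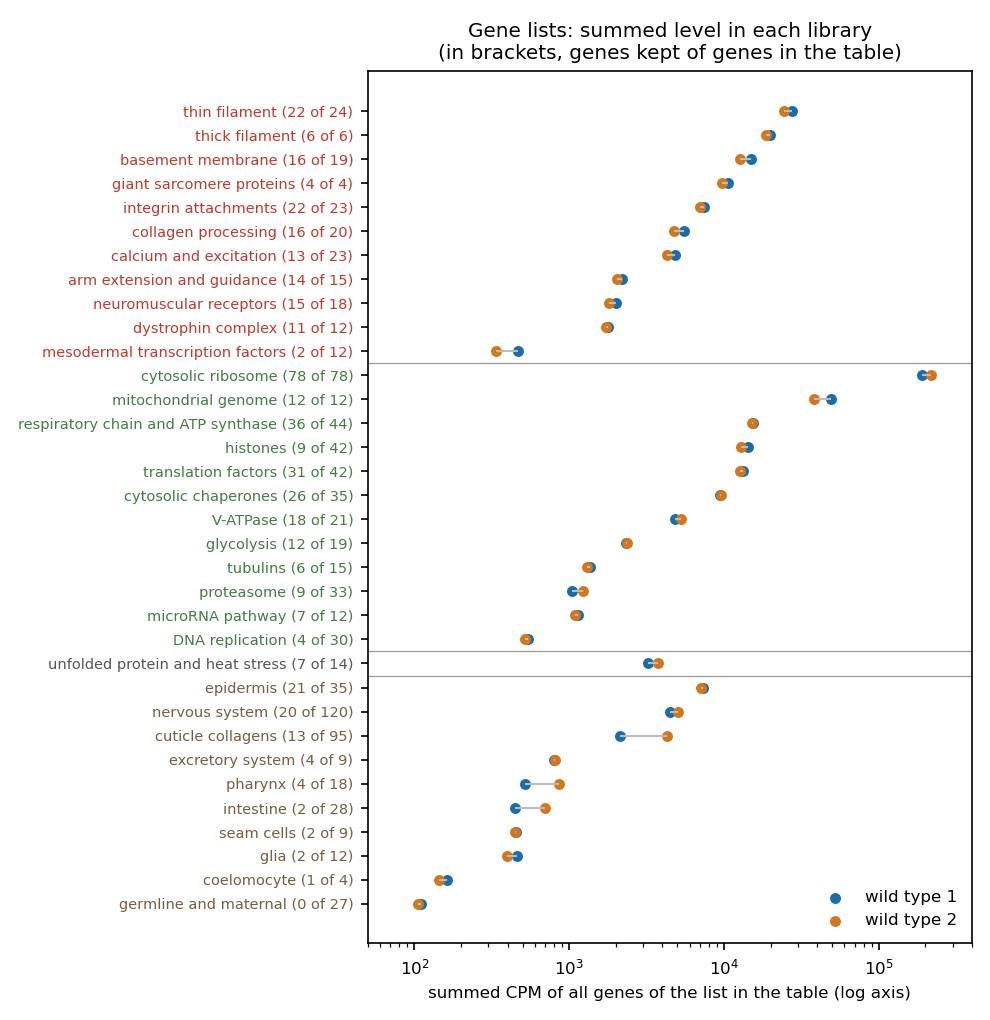
Summed level of the 34 gene lists in wild type 1 and wild type 2 (points joined by a line), in CPM on a log axis; muscle lists stand at the top, then general functions, stress, and markers of other tissues, each in order of the mean. The cytosolic ribosome is highest and the germline list lowest, and the points of the cuticle collagens, the pharynx and the intestine lie farthest apart among the lists of other tissues.

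The epidermis gave the most. Of 35 epidermal genes 21 were kept and the sum was 7333 and 7097 CPM, about the level of the integrin attachments of muscle. The collagens *dpy-17* (1630 and 1628 CPM) and *sqt-3* (1414 and 1261 CPM) of the cuticle led, followed by *ajm-1* (644 and 675 CPM), a protein of apical junctions, and *vab-10* (575 and 656.5 CPM), a spectraplakin that spans the epidermis opposite muscle. The collagens *dpy-10*, *dpy-2*, *dpy-7* and *dpy-3* were all kept as well, and with *dpy-17*, *sqt-3* and *dpy-14* they summed to 5547 and 5330 CPM. The transcription factors were lower. *lin-26*, of epidermis and glia, had 26 and 38 counts, *elt-3* 16 and 29, *nhr-23* 12 and 18, *elt-1* 5 and 9, *grh-1* 8 and 7 and *nhr-25* 3 and 11. Collagens *dpy-5*, *dpy-13* and *bli-1* had no counts in either library. Of 9 markers of seam cells 2 were kept (22.2%, close to the 25.03% of all genes in the table). These were the hedgehog-related *wrt-2* (188 and 221 CPM) and *wrt-10* (102 and 96.5 CPM). The seam factors *elt-6* (15 and 6 counts), *egl-18* (11 and 8), *rnt-1* (7 and 9), *bro-1* (3 and 5) and *ceh-16* (3 and 1) and the ground-like gene *grd-10* (1 and 24) were not kept.

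The larger cuticle collagen family differed between the libraries. The 7 *dpy* and *sqt* collagens summed above were put together after the values were seen and are no standard for it. Of 95 genes named *col-* 13 were kept (13.7%, beside 25.03% of all genes in the table). The list of 95 summed to 2144 CPM in wild type 1 and 4252 CPM in wild type 2. *col-3* had 159 and 360 CPM, *col-167* 126 and 341 CPM, *col-76* 261 and 181 CPM and *col-125* 85.6 and 336 CPM. *col-117* (77.4 and 275 CPM), *col-107* (89.7 and 247 CPM) and *col-144* (44.8 and 181 CPM) were also higher in wild type 2, as were 10 of the 13 in all. Collagens of this family are similar in coding sequence, and the counts of single genes are uncertain.

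Markers of the nervous system were kept for 20 of 120 genes (16.7%, beside 25.03% of all genes in the table). The list summed to 4471 and 5029 CPM. *unc-44*, an ankyrin of axons with forms in many cells, was far above the rest at 1312 and 1132 CPM. *nlp-33*, listed here by its name as a neuropeptide-like gene but known as an antimicrobial peptide of the epidermis, had 318 and 431 CPM. *unc-33*, a CRMP of axons, had 261 and 268 CPM and *syd-2*, a liprin of synapses, 228 and 219 CPM. The 7 antimicrobial peptide genes among *nlp-27* to *nlp-34* summed to 583 and 812 CPM, and the 30 *flp* neuropeptide genes to 395 and 489 CPM, with *flp-10* and *flp-1* kept.

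Genes that define neuron classes were mostly below the minimum. The proneural factors *hlh-14* (24 and 25 counts) and *cnd-1* (13 and 16) were kept, while *unc-3* had 7 and 23 counts, *lin-11* 9 and 11, *unc-86* 6 and 13, *unc-30* 6 and 4, *ngn-1* 2 and 3, *ttx-3* 3 and 1, *ceh-10* 2 and 1, *lin-32* 2 and 0 and *unc-4* 0 and 1. The transmitter genes *unc-17* (1 and 0 counts), *cha-1* (1 and 1), *unc-47* (1 and 0), *unc-25* (0 and 6), *eat-4* (3 and 6) and *tph-1* (1 and 0) were at or below the limit that a count of 0 allows in at least 1 library. In the glia list *dyf-7* (212 and 137 CPM), a zona pellucida protein of sensory dendrites, and *lin-26* were kept (16.7% of the list). The other 10 genes were not. Among those, *ptr-10* had 7 and 19 counts, *daf-6* 9 and 8, the factor *mls-2* 7 and 11, and the factor *hlh-17* 0 and 5.

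The pharynx has its own muscle, with myosins and troponins that the *myo-3* promoter does not mark. Of 18 genes 4 were kept (22.2%, close to the 25.03% of all genes in the table), and the list summed to 522 and 854 CPM. The kept genes were the factors *ceh-34* (122.3 and 131.8 CPM), *pha-4* (81.5 and 94.1 CPM) and *tbx-2* (81.5 and 49.4 CPM), and the pharyngeal troponin I gene *tni-4* (48.9 and 155 CPM). The 6 pharyngeal myosin and troponin genes *myo-1*, *myo-2*, *myo-5*, *tni-4*, *tnc-2* and *tnt-4* had 28 counts in wild type 1 and 183 in wild type 2, or 114 and 431 CPM, and each of the 6 was higher in wild type 2. The 7 pharyngeal transcription factors summed to 387 and 311 CPM, with *ceh-22* at 18 and 7 counts and *hlh-6*, *ceh-19* and *pax-1* at 3 or fewer counts in each library. So the contractile genes of the pharynx summed to 3.77 times as much CPM in wild type 2 as in wild type 1. The factors summed to 0.802 times as much, but 2 of the 7, *ceh-34* and *pha-4*, were higher in wild type 2. Both groups were put together after the values were seen.

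Few intestinal genes and no germline genes were kept. Of 28 intestinal genes 2 were kept (7.14%, beside 25.03% of all genes in the table). These were *gut-2* (155 and 120 CPM) and the lysosomal protease *asp-4* (97.8 and 63.5 CPM). *gut-2* takes its name from a gut defect but encodes an LSm-type RNA-binding protein of general use. The list summed to 448 and 701 CPM, and 1 gene, the protease *asp-1* with 6 and 92 counts, moved most between the libraries. *ifb-2*, an intermediate filament of the gut, had 9 and 34 counts. The gut factors *elt-2* (2 and 3 counts), *elt-7* (4 and 7), *end-3* (0 and 2) and *end-1* (0 and 0) summed to 24.5 and 28.2 CPM. Of 27 germline and maternal genes none was kept, and their sum was 110 and 106 CPM, led by *mex-3* (8 and 14 counts), *syp-1* (2 and 5), *glh-1* (3 and 3) and *glh-3* (2 and 3). The germline factor *pie-1* had 1 and 2 counts.

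Of the excretory list 4 of 9 genes were kept (44.4%, beside 25.03% of all genes in the table), and the list summed to 799 and 809 CPM. *exc-9* (338 and 332 CPM), *exc-5* (208 and 198 CPM) and *exc-6* (139 and 134 CPM) shape the excretory canal and act in other cells too, and the nuclear receptor *nhr-31* had 65.2 and 84.7 CPM. The more restricted *aqp-8* had 0 and 1 counts and *exc-4* 1 and 3, the factor *ceh-6* had 7 and 11, and *lin-48* had no counts. In the coelomocyte list *ceh-34*, shared with the pharynx list, was the single kept gene of 4 (25%). The scavenger cell markers *cup-4* (7 and 4 counts), *lgc-26* (3 and 0) and *unc-122* (0 and 1) were near the limit.

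**Figure D5:**
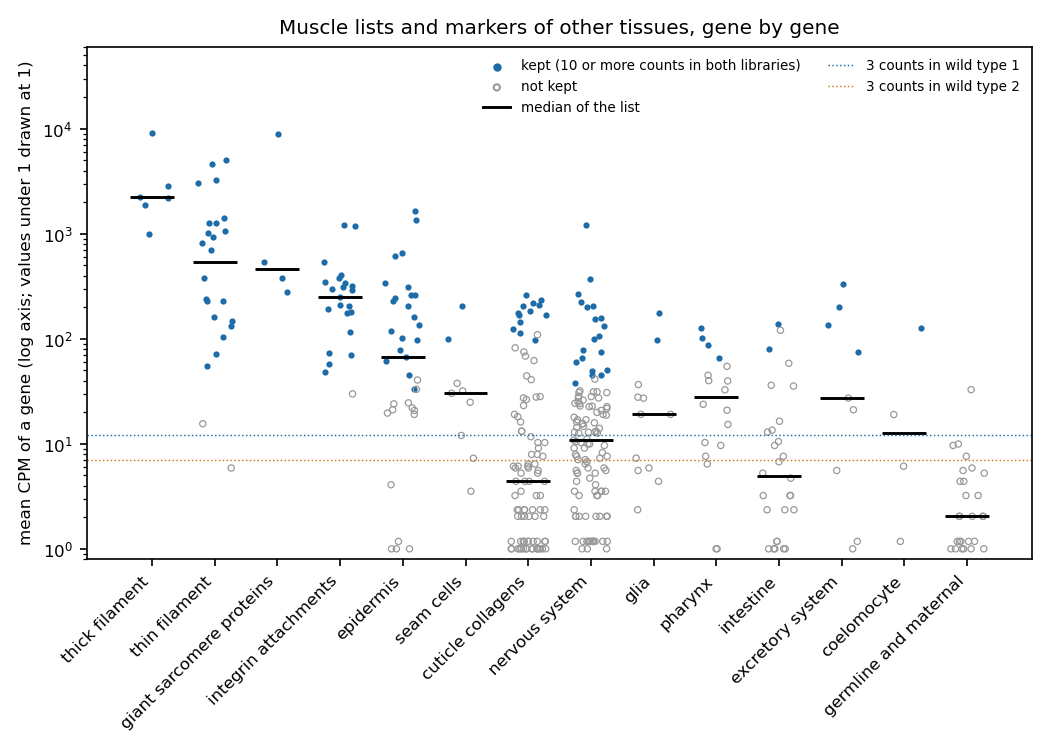
Mean CPM of each gene (points, log axis, values under 1 drawn at 1) in 4 muscle lists, at the left, and 10 lists of markers of other tissues; filled points are kept genes, open points are not, bars are list medians and dotted lines mark the level of 3 counts in each library. List medians fall from 2214 CPM for the thick filament to 2.04 CPM for the germline, with 66.7 CPM for the epidermis as the highest among other tissues.

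Among kept genes with a mean of at least 50 CPM, those with the largest ratio toward wild type 2 included several of the collagens. *R12E2.7*, of no listed function, had 102 and 447 CPM, and after it came *col-144*, *col-125*, *col-117* and *tni-4*. *C02E7.7* was the most abundant of the 10, and its ratio of wild type 1 to wild type 2 of 0.346 had an exact 95% interval of 0.306 to 0.391. *rpb-6*, an RNA polymerase subunit, had 61.1 and 172 CPM, and *ram-2* 245 and 654 CPM. *col-107* and *col-167* made up the 10.

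In the other direction the genes were less abundant and shared no list. *R02F11.1* had 171 and 42.4 CPM, *ndx-4*, a Nudix hydrolase, 118 and 35.3 CPM, *eftu-2*, a splicing GTPase, 77.4 and 23.5 CPM, and *eif-3.I*, a translation initiation subunit, 139 and 47.1 CPM. *dss-1*, *str-148*, *T21B10.3* and *C06E7.88* had 12 to 16 counts in wild type 2. The more abundant *pfn-3*, a profilin of body-wall muscle, had 253 and 91.8 CPM, and *T07A5.5* (named *ostf-4* in the annotation) 408 and 148 CPM. The minimum asks for a higher CPM in wild type 1 than in wild type 2. Of all kept genes 2197 were higher in wild type 1 and 1423 in wild type 2, with a median ratio of 1.09. The parts of the minimum and of the make-up of the libraries in this lean were not tested.

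By position, the share of the table's genes that was kept differed between chromosomes. It was 31.1% on chromosome I and 30.98% on III, 24.8% on IV, 23.8% on II, 23.5% on X and 18.1% on V. The 100 most abundant genes had a median annotated transcript of 515 bases, against 1522 bases over kept genes and 1330 bases over the whole table. Of the 40 most abundant genes, 35 had an annotated length.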

How the data were processed

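Gene-level counts of QuantSeq 3′ mRNA libraries were used. Before they deposited the count table, the authors extracted unique molecular identifiers (UMIs) with UMI-tools, trimmed and mapped the reads to WBcel235 with STAR, discarded duplicates by UMI and counted with HTSeq; the deposited counts are whole numbers and not normalized. Versions, the annotation release and the treatment of strand and of reads with several matches are not given in the sources used here. The miR-1-deficient libraries were left out.

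Genes with a count of at least 10 in both wild-type libraries were kept, and CPM was computed from the total of each library. Means carry the SD of 2 libraries. Positions and lengths came from the Ensembl annotation of WBcel235, in which 14260 of 14463 genes (98.6%) and 3562 of 3620 kept genes (98.4%) were matched; older symbols and mitochondrial genes were not. Ratios between libraries carry exact 95% Clopper-Pearson intervals. Computation used Python 3.11.15, pandas 2.3.3 and SciPy 1.17.1, and for size factors R 4.3.3, edgeR 4.0.16 and DESeq2 1.42.0. The counting of kept genes was tested on simulated counts.

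The kept genes and the 34 gene lists were chosen with earlier results of these data known. Genes named were the 3 markers, the 40 most abundant, the 4 most abundant of each list with the transcription factors of the other-tissue lists, the 10 most abundant with only a sequence name, and the 10 with the largest ratio in each direction among kept genes of at least 50 CPM. Others were named after their values were seen.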

Additional observations from a re-analysis of the deposited data

How the results depend on the processing

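The number of kept genes depended on the minimum. It was 5440 with at least 5 counts in both libraries, 2043 with at least 20 and 9303 with at least 1, against 3620 at 10. It was 3177 after thinning wild type 2 to the depth of wild type 1, and 3725 to 5223 with the minimum asked of a single library. The share of counts held by kept genes was 88.99% to 90.50%, by the 10 most abundant genes 7.42% to 8.43% and by the 100 most abundant 33.8% to 34.8% with either library left out; with 2 libraries, leaving 1 out moves a mean by less than their SD by construction. Without the genes of mitochondrial DNA the 100 most abundant genes held 32.8%. Summed levels of the 34 lists were 0.994 to 1.01 times the main values with TMM or DESeq2 size factors; counting only kept genes lowered 6 of the 34 by over 1.5-fold. With a minimum of 5 or 20 counts the number of kept genes changed by over 1.5-fold in 11 and 7 lists. Of the 40 most abundant genes, 35 had an annotated length, and 28 of these stayed among the 40 highest per kilobase of transcript. No paired analysis was possible because only 1 genotype was analysed and no test was made. Depth limits the low genes most: 10 counts are 40.8 CPM in wild type 1 and 23.5 CPM in wild type 2.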

Other observations

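Among genes with a functional name that were in no list, several regulators of RNA and of signalling were abundant. *cey-1*, a Y-box RNA-binding protein, had 3497 and 2751 CPM in wild type 1 and wild type 2, close to the troponin I gene *tni-1*. *sqd-1*, an hnRNP-like protein, had 1545 and 1282 CPM. *gpc-2*, a G protein gamma subunit, had 2515 and 2664 CPM, and *ftt-2*, a 14-3-3 protein, 2702 and 2294 CPM. *rho-1*, the small GTPase that governs actomyosin contractility in many cells, had 974 and 979 CPM. *hbl-1*, the Hunchback-like factor of developmental timing, had 1447 and 1160 CPM, which was above *unc-120* and *hlh-1* in both libraries. Transcription factors of the muscle lists were thus not the most abundant factors in these counts.

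*aqp-2*, an aquaporin, had 2902 and 2115 CPM, and *ttr-16*, a transthyretin-related secreted protein, 2564 and 1857 CPM. *tct-1*, the translationally controlled tumour protein, had 1308 and 1339 CPM and *icd-1*, a subunit of the nascent polypeptide-associated complex, 1194 and 1179 CPM. *aco-2*, the mitochondrial aconitase, had 1027 and 1111 CPM, and *mdh-1*, a malate dehydrogenase, 823 and 899 CPM. *ubl-1*, which encodes a ubiquitin-like domain fused to a ribosomal protein, had 1557 and 1786 CPM. *cut-2*, a cuticlin of the cuticle, had 750 and 1078 CPM, higher in wild type 2 like most of the *col-* genes. *ttr-16* overlaps *lin-3* and *cey-1* overlaps *F33A8.10* on the opposite strand, and the strand setting of the counting is not given in the sources used here.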
